A study of Homo sapiens with 36 samples.

Results

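RNA from 2 polysome fractions of RBPMS knockout human embryonic stem cells was compared within each of 3 cultures, Polysome2 against Polysome1, in 6 of the 36 libraries of the series. The cells belonged to HUES6, a human embryonic stem cell line in wide use, kept in FTDA medium, and carried a knockout of RBPMS (KO). WT HUES6 cultures, handled in the same way, gave the 6 libraries with which the KO comparison was set side by side. All cultures, KO and WT, received cycloheximide at 100 ng/ml for 5 min to hold ribosomes on their mRNAs, then lysates were separated on a gradient, and RNA was sequenced as stranded, paired 75 nt reads of poly(A) RNA from equal amounts of RNA per sample. The labels number the fractions and do not say which is heavier. In WT the mean of Polysome1 correlated with the disome mean at r = 0.955 and that of Polysome2 at r = 0.811 over the transcripts tested, the order of a gradient in which Polysome2 lies further from the disome. Within KO cultures 1, 2 and 3 the disome library correlated with Polysome1 at 0.830, 0.945 and 0.948, and with Polysome2 at 0.826, 0.880 and 0.862. In KO culture 1 these values hardly differed, so the order was not shown there. The labels do not say whether the KO cultures came from 1 clone or several, or from separate days, so the p-values measure the spread between these cultures.

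Polysomes are mRNAs that carry several ribosomes at once. In a sucrose gradient an mRNA sediments further the more ribosomes it holds, so the lighter polysome fraction holds mRNAs with few ribosomes (short coding regions or slow initiation) and the heavier one holds mRNAs with many. RBPMS is an RNA-binding protein with a single RNA recognition motif, known from rat smooth muscle as a regulator of splicing. The comparison asks how mRNAs were divided between the lighter and the heavier polysomes in cells that lack it. Equal RNA went into each library, so a value is a transcript's share within its fraction, whatever amount of RNA that fraction held.

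Values were TPM, an abundance unit per transcript that is corrected for transcript length and scaled to 1000000 per library. Of the 223367 transcripts in the table, 7243 had 10 TPM or more in at least 3 of the 6 KO polysome libraries and were tested. They held 78.0% to 94.6% of all TPM in the KO polysome libraries. Of these, 3872 reached 10 TPM in all 6 libraries, and 953 passed with exactly 3. A further 3767 transcripts lay just outside, with 10 TPM in 2 libraries. Passing through 1 fraction alone was rare, with 7 transcripts that reached 10 TPM in the 3 Polysome2 libraries only and 11 in the 3 Polysome1 libraries only. The choice of rows was shaped more by culture: 835 transcripts reached 10 TPM in both libraries of KO cultures 1 and 2 and in neither of culture 3. The table and the annotation used here pair no transcript ID with a gene, so transcripts are given by ID, at most 2 in each direction, and neither the loss of RBPMS nor the marker genes of stem cells could be checked in these libraries.

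The 3 KO cultures did not resemble each other. KO culture 3 polysome libraries correlated with the 6 WT polysome libraries at r = 0.800 to 0.925 over the 7243 transcripts (log2(TPM + 1)), while KO cultures 1 and 2 did so at 0.205 to 0.498. KO cultures 1 and 2 correlated with each other at 0.800 to 0.845 and with KO culture 3 at 0.272 to 0.566. Transcripts are not independent replicates, and libraries of a culture share their cells, so these values are descriptions. They also depend on the choice of rows, which used KO levels only. KO cultures 1 and 2 together could admit a transcript, while culture 3 alone could not. Of the 7243 transcripts, 1148 (15.8%) reached 10 TPM in neither library of culture 3, and 895 (12.4%) in neither library of culture 1. Transcripts that reached 1 TPM numbered 21548, 20594 and 30940 in KO Polysome2 of cultures 1, 2 and 3, and 20899, 21623 and 30880 in KO Polysome1. In WT there were 27558 to 30336 in Polysome2 and 29759 to 32303 in Polysome1. KO cultures 1 and 2 lay below all WT libraries by this measure, and KO culture 3 lay among or just above them.

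The synthetic ERCC spike-in RNAs followed the same division. They totalled 579, 498 and 47.8 TPM in KO Polysome2 of cultures 1, 2 and 3, and 353, 260 and 46.4 TPM in KO Polysome1. The WT libraries held 2.55 to 9.41 TPM in Polysome2 and 4.52 to 16.1 TPM in Polysome1. All 6 KO values lay above all 6 WT values, with cultures 1 and 2 the highest. The WT totals rested on few of the 92 ERCC rows. Rows above 0 numbered 7 in WT Polysome2 of culture 3 and 9 in WT Polysome1 of culture 2, against 32 to 37 in KO cultures 1 and 2. The counts after scaling to the ERCC total are given beside those below, and carry this limit. The pseudocount of 1 was kept after that scaling, which understates changes where the ERCC total was high, as in KO cultures 1 and 2. Within KO the ERCC total was higher in Polysome2 in 3 of 3 cultures, by 0.57 ± 0.47 on the log2 scale (SD, n = 3; exact sign-flip permutation p = 0.25, two-sided, the smallest that 3 pairs allow, adjusted p = 0.938 over 5 library measures). The other 4 measures (transcripts at 1 and 10 TPM and the shares of the 10 and 100 most abundant transcripts) were higher in Polysome2 in 2 of 3 cultures each (exact sign-flip permutation p of 0.5 to 1).

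**Figure D1:**
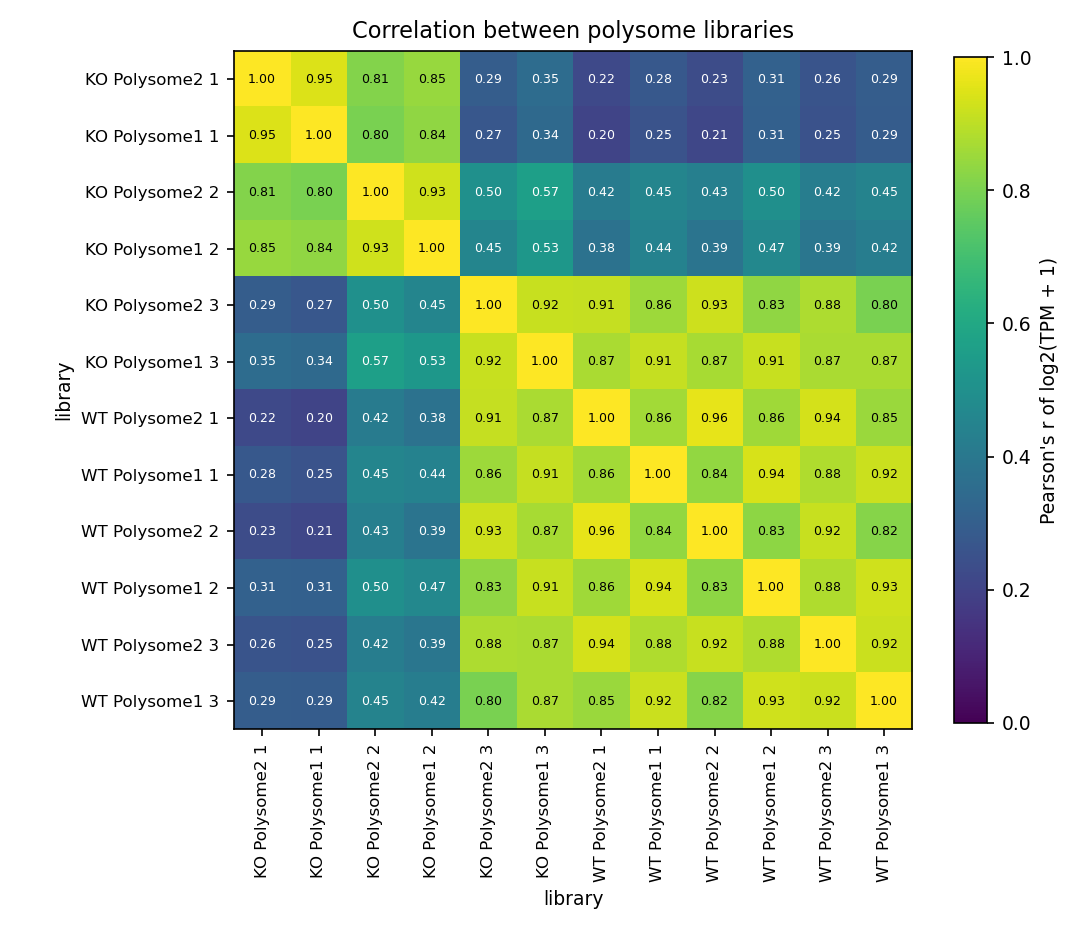
Pearson's r of log2(TPM + 1) over the 7243 tested transcripts between each pair of the 12 polysome libraries, KO above and left of WT, with the culture number after the fraction. The 4 libraries of KO cultures 1 and 2 form a block of their own, at 0.205 to 0.498 with WT, and the 2 libraries of KO culture 3 lie with the WT block at 0.800 to 0.925. The rows were chosen by KO levels, which cultures 1 and 2 together could meet without culture 3, so the block depends in part on that choice.

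No transcript passed the test between the KO polysome fractions. Of 7243 transcripts, 0 were higher and 0 lower in KO Polysome2 than in KO Polysome1 (limma with culture as a block, Benjamini-Hochberg adjusted p under 0.05; percent called 0), and the smallest adjusted p was 0.167. At an unadjusted p under 0.05, limma gave 190 higher and 217 lower, 5.62% of those tested. In the same fit and over the same transcripts, 1609 were higher (22.2%) and 1541 lower (21.3%) in WT Polysome2 than in WT Polysome1, together 43.5% of those tested, with 53% at an unadjusted p under 0.05. After scaling to the ERCC total the WT split was 2141 higher and 874 lower, and the KO counts were still 0. Without KO culture 1 the KO count was 1, without KO culture 2 or 3 it was 0, and with the 6 KO libraries alone in the fit it was 0.

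The KO estimates were also small. The median log2 difference of KO Polysome2 from KO Polysome1 was -0.04, and the 5th and 95th percentiles over transcripts were -0.79 and 0.60, against 0.02, -2.02 and 1.34 in WT. For 4393 transcripts, 60.7%, the 95% interval of the mean KO log2 difference lay wholly between -1 and 1. This leaves out a 2-fold change of the mean on this scale, and not a change in 1 culture. In KO culture 3 alone the difference exceeded 1 in size for 1221 transcripts. The interval lay between -1 and 1 for 1705 transcripts, 23.5%, in WT. It had the same width there (a median of 0.64 on each side), since the spread is shared, and more estimates were far from 0. The KO estimate exceeded 1 in size for 348 transcripts, and the WT estimate did for 2438. All 3 KO Polysome2 libraries lay above all 3 KO Polysome1 libraries for 39 transcripts and below them for 96, together 1.86% of those tested. In WT these counts were 1597 and 1631, together 44.6%.

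Within KO, the culture accounted for far more of the variation than the fraction. Of the sum of squares of log2(TPM + 1) around each transcript's mean in the 6 KO polysome libraries, 89.2% lay between cultures, 4.10% between fractions and 6.69% in the rest. In WT 30.9% lay between cultures, 51.5% between fractions and 17.7% in the rest. Between KO cultures 1 and 2 alone, which resembled each other, 70.5% lay between cultures, 15.3% between fractions and 14.3% in the rest. The share between fractions was thus close to that of the rest in these 2 cultures. The differences between the KO cultures were large for single transcripts: 994 were over 4-fold higher in both cultures 1 and 2 than in culture 3 (mean of the 2 fractions, on the log2(TPM + 1) scale), and 439 were over 4-fold lower in both. In these bulk libraries fewer cells of a kind and less RNA per cell cannot be told apart. A transcript was tested only if it was high enough in some KO libraries, so these counts describe the rows tested.

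The size of the difference between fractions was then read in each culture. The middle part of the distribution (interquartile range over 7243 transcripts) spanned 0.46, 0.45 and 0.96 on the log2 scale in KO cultures 1, 2 and 3, against 1.64, 1.92 and 1.19 in WT cultures 1, 2 and 3. Polysome2 and Polysome1 differed by over 1 on the log2 scale for 470 transcripts in KO culture 1 (6.49% of those tested), 544 in KO culture 2 (7.51%) and 1221 in KO culture 3 (16.9%). In the WT cultures the numbers were 2844 (39.3%), 3366 (46.5%) and 2032 (28.1%). All 3 KO cultures had a narrower spread than all 3 WT cultures, with a mean interquartile range of 0.63 ± 0.29 in KO and 1.58 ± 0.37 in WT (SD, n = 3 each; exact permutation p = 0.1, two-sided, the smallest that 3 against 3 allow, adjusted p = 0.1 over 6 measures of spread). KO culture 3 lay between the other KO cultures and WT culture 3 by both measures, nearer to WT culture 3 by the interquartile range and nearer to KO culture 2 by the share over 1.

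**Figure D2:**
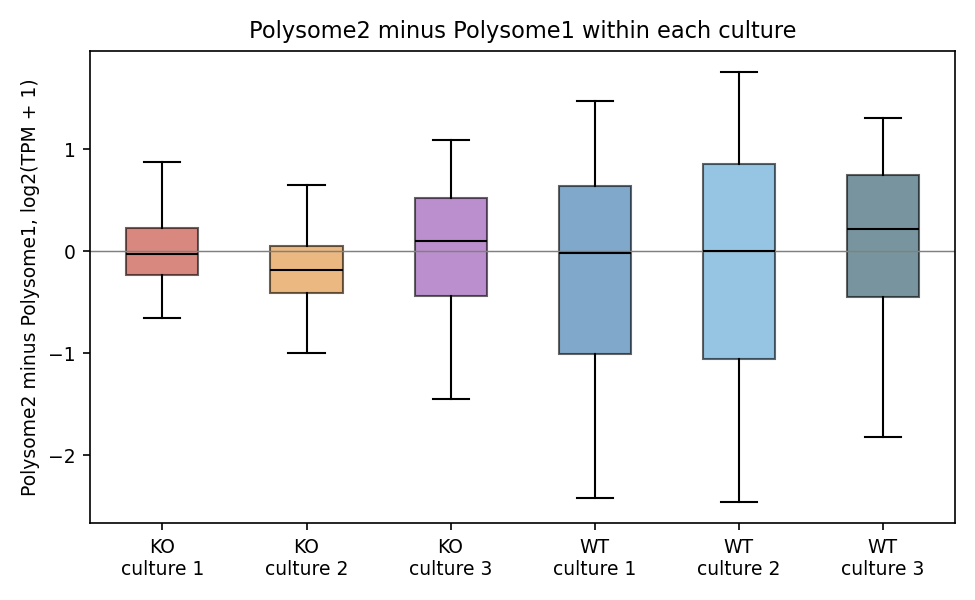
Polysome2 minus Polysome1 on the log2(TPM + 1) scale for the 7243 tested transcripts in each culture, KO on the left and WT on the right. Boxes give the quartiles and the median, and whiskers the 5th and 95th percentiles. The boxes of KO cultures 1 and 2 span 0.46 and 0.45, that of KO culture 3 spans 0.96, and those of WT span 1.19 to 1.92.

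The narrow spread of the KO cultures was also seen in transcripts well above the low end in every library. For the 2835 transcripts at 10 TPM or more in all 12 polysome libraries, a set chosen after the data were seen, the interquartile range was 0.38, 0.34 and 0.86 in KO cultures 1, 2 and 3, and 1.71, 2.02 and 1.19 in WT. By abundance, in 5 bins of the mean TPM over the 12 libraries, the interquartile range in KO culture 1 was 0.49 in the lowest bin and 0.43 in the highest, and in KO culture 2 it was 0.62 and 0.40. In KO culture 3 it was 0.990 and 0.998. In WT culture 2 it was 1.48 in the lowest bin and 2.35 in the highest, above 87.0 TPM, and in WT culture 3 it was 0.987 and 1.27. The gap between KO cultures 1 and 2 and these WT cultures was thus wider among abundant transcripts than among low ones.

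The 3 KO cultures did not share a direction. Over the 7243 transcripts, the Polysome2 minus Polysome1 differences of KO cultures 1 and 2 correlated at r = 0.04, those of cultures 1 and 3 at 0.11 and those of cultures 2 and 3 at 0.07. Between WT cultures the values were 0.59 to 0.69. The sign was the same in all 3 KO cultures for 2100 transcripts, 29.0%, of which 680 were higher and 1420 lower in Polysome2. It was the same in all 3 WT cultures for 4692, 64.8%. The median difference over all transcripts was -0.03, -0.18 and 0.10 in KO cultures 1, 2 and 3. A shift of a whole library moves the signs of many transcripts, so the split of 680 and 1420 is not read as a shared fall. In KO, culture 3 alone had the other sign for 1701 transcripts, culture 2 alone for 1722 and culture 1 alone for 1521, so by sign culture 3 did not stand apart from a shared pattern of cultures 1 and 2.

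KO culture 3 differed from KO cultures 1 and 2 in that its change followed that of WT. Its Polysome2 minus Polysome1 differences correlated with those of WT cultures 1, 2 and 3 at r = 0.46, 0.59 and 0.48, and had the same sign for 72.5%, 77.2% and 75.2% of transcripts. KO culture 1 did so at -0.02, 0.08 and 0.03, and KO culture 2 at 0.15, 0.07 and 0.06. For the 2835 transcripts at 10 TPM or more in all 12 libraries, the r of KO culture 3 with WT cultures 1, 2 and 3 was 0.76, 0.83 and 0.76, beside 0.78 to 0.91 between WT cultures. The r with the WT mean was 0.83 in KO culture 3, and 0.02 and 0.15 in KO cultures 1 and 2. In that set the slope of the KO culture 3 differences on the WT mean was 0.51, so its change ran the same way as in WT at a smaller size. No test was made of this, since culture 3 is 1 culture.

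**Figure D3:**
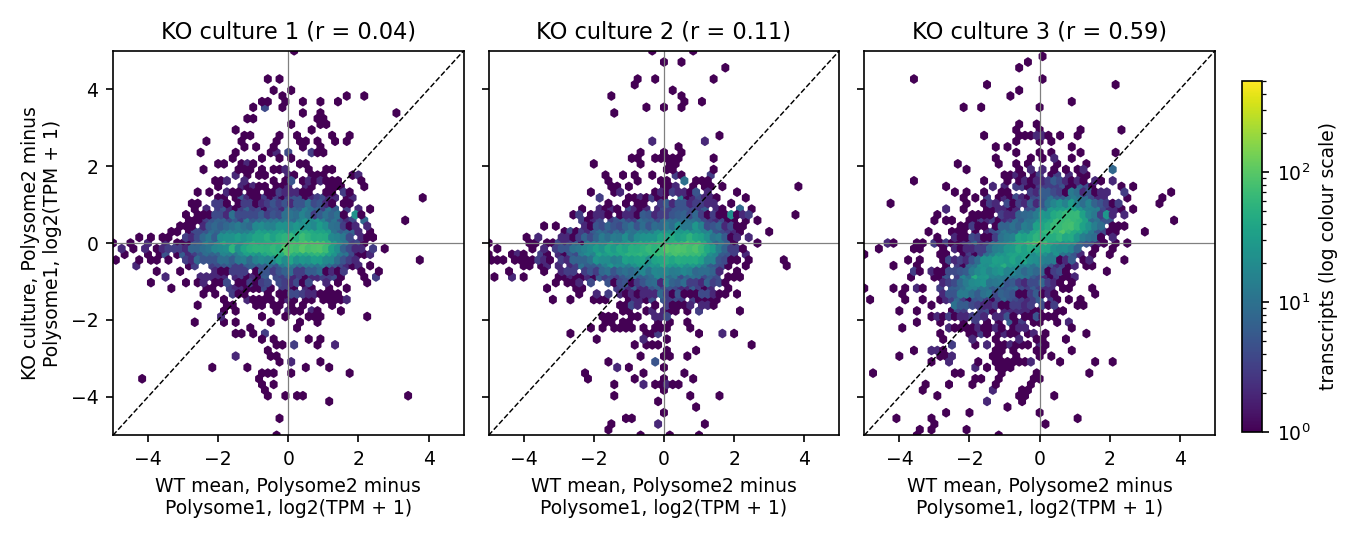
Polysome2 minus Polysome1 in each KO culture (vertical) against the mean of the 3 WT cultures (horizontal), both on the log2(TPM + 1) scale, for the 7243 tested transcripts, with the number of transcripts per hexagon on a log colour scale and the dashed line at equal change. 44 transcripts lie beyond the limits of 5 and are not drawn. The cloud of KO cultures 1 and 2 lies flat along 0 (r = 0.04 and 0.11), and that of KO culture 3 is tilted (r = 0.59).

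The transcripts called in WT show this in detail. The 1609 transcripts that rose in WT Polysome2 had a median log2 difference of -0.05 in KO culture 1, -0.10 in KO culture 2 and 0.49 in KO culture 3, against 1.01, 1.17 and 0.91 in WT cultures 1, 2 and 3. They were higher in Polysome2 for 43.6%, 36.3% and 93.4% of the list in KO cultures 1, 2 and 3. The 1541 transcripts that fell in WT Polysome2 had medians of -0.04, -0.22 and -0.69 in KO cultures 1, 2 and 3, against -1.60, -1.69 and -1.14 in WT. They were lower in Polysome2 for 55.7%, 78.4% and 90.8% of the list in KO cultures 1, 2 and 3. KO culture 2 was on the lower side in both lists, and its median over all 7243 transcripts was -0.18. With the lists taken from a fit of the WT libraries alone (1186 higher and 1054 lower), the shares with the WT direction were 41.4%, 34.8% and 94.8% for the higher list in KO cultures 1, 2 and 3, and 53.8%, 76.9% and 94.0% for the lower list.

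**Figure D4:**
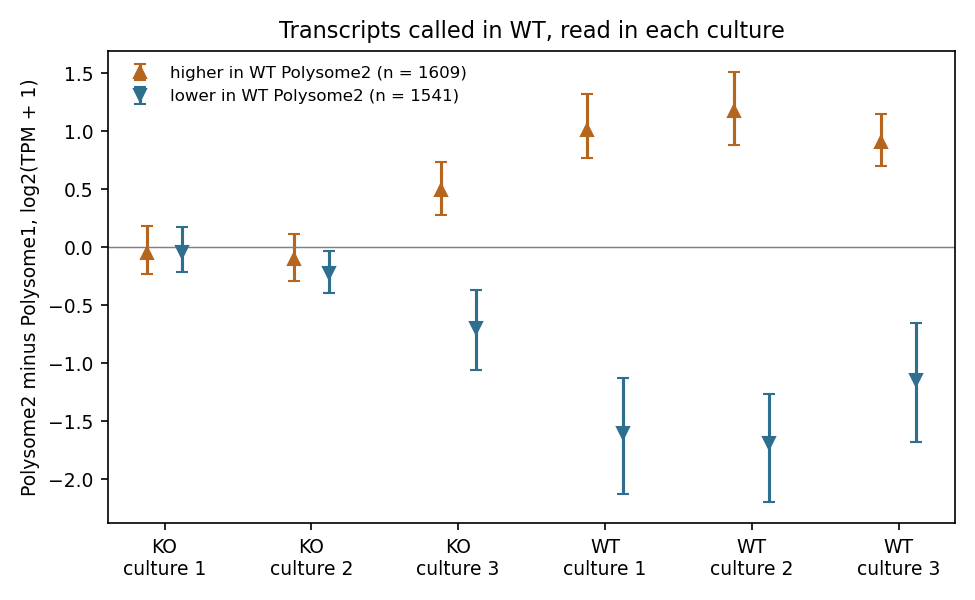
Median (marker) and quartiles (bars) of the Polysome2 minus Polysome1 difference on the log2(TPM + 1) scale in each culture, for the 1609 transcripts higher (upward triangles) and the 1541 lower (downward triangles) in WT Polysome2. The lists were called on the WT change, so the WT values follow from the choice. The KO values are not wholly apart from it, since the fit shares its spread between KO and WT and the rows were chosen by KO levels. In KO culture 3 the lists part, at 0.49 and -0.69, and in KO cultures 1 and 2 all 4 medians lie between -0.22 and -0.04.

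The same lists give the part of each library they filled. The transcripts lower in WT Polysome2 made up 29.8%, 26.7% and 14.2% of all TPM in KO Polysome2 of cultures 1, 2 and 3, and 29.4%, 28.2% and 24.5% in KO Polysome1. In WT cultures 1, 2 and 3 they made up 10.8%, 9.12% and 14.8% of Polysome2, and 34.4%, 33.7% and 34.4% of Polysome1. The transcripts higher in WT Polysome2 made up 16.9%, 24.3% and 32.3% of KO Polysome2, and 17.9%, 20.8% and 23.8% of KO Polysome1. In WT they made up 37.0%, 42.6% and 26.6% of Polysome2, and 14.9%, 15.5% and 14.6% of Polysome1. In KO cultures 1 and 2 the lower list thus filled nearly the same share of both fractions, and in KO culture 3 its share of Polysome2 was below that of Polysome1 and among the WT values.

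The 80S fraction, mRNA with 1 ribosome, gave a second reading within each culture. The transcripts higher in WT Polysome2 lay above their 80S level, by a median of 0.87 on the log2 scale in Polysome1 and 0.84 in Polysome2 of KO culture 1, and by 0.68 and 0.61 in KO culture 2. In KO culture 3 they lay 0.70 above 80S in Polysome1 and 1.25 above it in Polysome2, and in WT 0.79 to 0.88 and 1.68 to 2.10. The transcripts lower in WT Polysome2 lay 0.31, 0.07 and 0.35 above 80S in Polysome1 of KO cultures 1, 2 and 3, and at 0.62, 0.54 and -0.18 in WT cultures 1, 2 and 3. For the higher list the median step between 80S and Polysome1 was thus 0.68 to 0.87 in KO and 0.79 to 0.88 in WT. For the lower list the WT cultures differed among themselves, and the 3 KO values lay within their range. Both lists were chosen on the WT Polysome1 and Polysome2 values, which shapes the WT step, so neither a likeness nor a difference between KO and WT is read from it. For the higher list the step between Polysome1 and Polysome2 was near 0 in KO cultures 1 and 2. Within a culture, Polysome1 and Polysome2 correlated at r = 0.949, 0.929 and 0.917 in KO cultures 1, 2 and 3, and at 0.862, 0.830 and 0.920 in WT. The 80S and Polysome2 libraries correlated at 0.837, 0.846 and 0.848 in KO, and at 0.757, 0.746 and 0.725 in WT.

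Large single-culture changes give the transcripts where KO culture 3 disagreed with cultures 1 and 2. Of the 1221 transcripts that differed by over 1 on the log2 scale in KO culture 3, 982, or 80.4%, stayed within 1 in both other KO cultures. Over all 7243 transcripts, 22.2% had been called higher and 21.3% lower in WT. Of the 768 that were lower in Polysome2 of culture 3 by over 1, 433 (56.4%, which is 28.1% of the WT list) had also been called lower in WT and 2 had been called higher. Of the 453 that were higher, 140 (30.9%, which is 8.70% of the WT list) had been called higher in WT and 14 lower. For KO culture 1 the shares called the same way in WT were 11.3% of its 275 higher and 19.5% of its 195 lower transcripts. For KO culture 2 they were 19.5% of 174 and 11.1% of 370. All 4 lay below the shares over all transcripts. KO and WT share an estimate of the spread in that fit, so a large change in 1 KO culture alone makes a WT call less likely. How far this lowered the shares was not tested, for KO culture 3 as for cultures 1 and 2. The low shares are not read as a result about KO cultures 1 and 2.

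Opposite large changes were few. KO cultures 1 and 2 both differed by over 1 in the same direction for 63 transcripts, 33 higher and 30 lower in Polysome2. KO culture 3 had the other sign for 11 of the 33 and for 12 of the 30, and was past 1 on that side for 6 and 2. It was past 1 on the same side for 7 and 8. Few of them were abundant throughout: among the 2835 transcripts at 10 TPM or more in all 12 libraries, cultures 1 and 2 both passed 1 in the same direction for 3, and culture 3 had the other sign for 0.

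The opposing transcript with the widest gap is given in each direction. ENST00000468508.1 had 0, 2.53 and 87.4 TPM in KO Polysome2 of cultures 1, 2 and 3, and 15.6, 11.1 and 35.4 TPM in KO Polysome1. It had 22.3, 31.2 and 17.9 TPM in WT Polysome2, and 14.7, 23.4 and 15.4 TPM in WT Polysome1. It was lower in Polysome2 in KO cultures 1 and 2, and higher in KO culture 3 and in all 3 WT cultures. The KO log2 difference was -1.52 (SE 0.84, limma adjusted p = 0.864), and the difference turned to 1.28 with KO culture 3 alone.

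ENST00000383858.1 was higher in Polysome2 in KO cultures 1 and 2 and lower in KO culture 3. It had 294, 822 and 0 TPM in KO Polysome2 of cultures 1, 2 and 3, and 1.56, 388 and 101 TPM in KO Polysome1. In WT it was listed at 9.10, 0 and 0 TPM in Polysome2, and at 0, 0 and 3.90 TPM in Polysome1. Its values were at 0 in some libraries and high in others in further fractions too, at 342, 333 and 68.6 TPM in KO 80S and 819, 285 and 0 TPM in KO disome of cultures 1, 2 and 3. The KO log2 difference was 0.42 (SE 2.24, limma adjusted p = 0.982), smaller than its error. A TPM of 0 is a listed estimate that can come from reads given to another transcript of like sequence, and depth is not known.

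The KO and WT changes were set against each other as an interaction term. In the fit of all 7243 transcripts, 1 transcript (0.0138%) had a more positive difference in KO than in WT and 0 a more negative one (limma adjusted p under 0.05). At an unadjusted p under 0.05, limma gave 1062 and 1125 (30.2%). The number of calls depended on the rows, on KO culture 3 and on the scaling. Over the 2835 transcripts at 10 TPM or more in all 12 libraries, 441 had a larger (more positive) and 482 a smaller (more negative) difference in KO, 32.6% of those tested, with 0 calls for KO itself and 66.5% called in WT. Without KO culture 3, 530 were larger and 502 smaller, 14.2% of 7243, with 43.1% called in WT. After scaling to the ERCC total, 53 were larger and 909 smaller. With KO culture 3 as the only KO culture, the median difference between the KO and WT changes was 0.06 over transcripts, beside -0.07 with all 3. No test is read from that fit, since 1 culture gives no spread for KO. The median does not show whether single transcripts were alike.

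The transcript called was ENST00000493185.2, named because it was the 1 call of that fit. It was listed at 117, 138 and 24.9 TPM in KO Polysome2 of cultures 1, 2 and 3, and at 117, 180 and 26.5 TPM in KO Polysome1. In WT it was listed at 0 in all 3 Polysome2 libraries, and at 31.6, 23.8 and 14.1 TPM in Polysome1. The KO fractions overlapped, and their log2 difference was -0.16 (SE 0.26, limma adjusted p = 0.944), while the WT fractions did not (limma adjusted p = 0.00244). The difference between the KO and WT changes was 4.37 on the log2(TPM + 1) scale (SE 0.36, limma adjusted p = 0.0355), a size that depends on the pseudocount because WT values are at 0 (2.29 with a pseudocount of 5). The call was lost in 10 of 18 alternatives, among them no replicate block (limma adjusted p = 0.652) and leaving out KO culture 1 or 2 or WT culture 1 or 2 (limma adjusted p of 0.108 to 0.209), and the adjusted p ranged from 0.000931 to 0.652 over all of them. KO cultures 1, 2 and 3 were alike in this change, and differed in level, with culture 3 near the WT Polysome1 level.

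A transcript with a large WT change is given for contrast. ENST00000445125.2, chosen after its values were seen as the largest WT rise among the 2835 transcripts that also ran upward in KO culture 3, had 718, 1929 and 1454 TPM in KO Polysome2 of cultures 1, 2 and 3, and 1232, 1228 and 546 TPM in KO Polysome1. In WT it had 4148, 6098 and 458 TPM in Polysome2, and 592, 316 and 273 TPM in Polysome1. It was higher in Polysome2 in KO cultures 2 and 3 and in all WT cultures, and lower in KO culture 1. Its values varied widely between cultures in other fractions too. In cultures 1, 2 and 3 it had 1911, 271 and 131 TPM in WT Input, and 37222, 876 and 876 TPM in KO disome. The KO log2 difference was 0.43 (SE 0.65, limma adjusted p = 0.941), and that of WT was 2.61 (SE 0.65, limma adjusted p = 0.0178). The difference between them was -2.18 (SE 0.92, limma adjusted p = 0.164). This difference passed in the fit over the 2835 transcripts it was chosen from (limma adjusted p = 0.0463) and after ERCC scaling (-3.25, limma adjusted p = 0.0338). The transcript was chosen by its WT rise, which favours a negative difference, so these p-values are no test apart from that choice. Over the alternatives with more than 1 KO culture the limma adjusted p of the difference ranged from 0.0338 to 0.772. The WT call was lost in 7 alternatives, including no replicate block (limma adjusted p = 0.0964), the WT libraries alone (0.0837), and leaving out WT culture 1 (0.0652) or WT culture 2 (0.0917, with an estimate of 1.78), within a range of 0.00151 to 0.13.

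**Figure D5:**
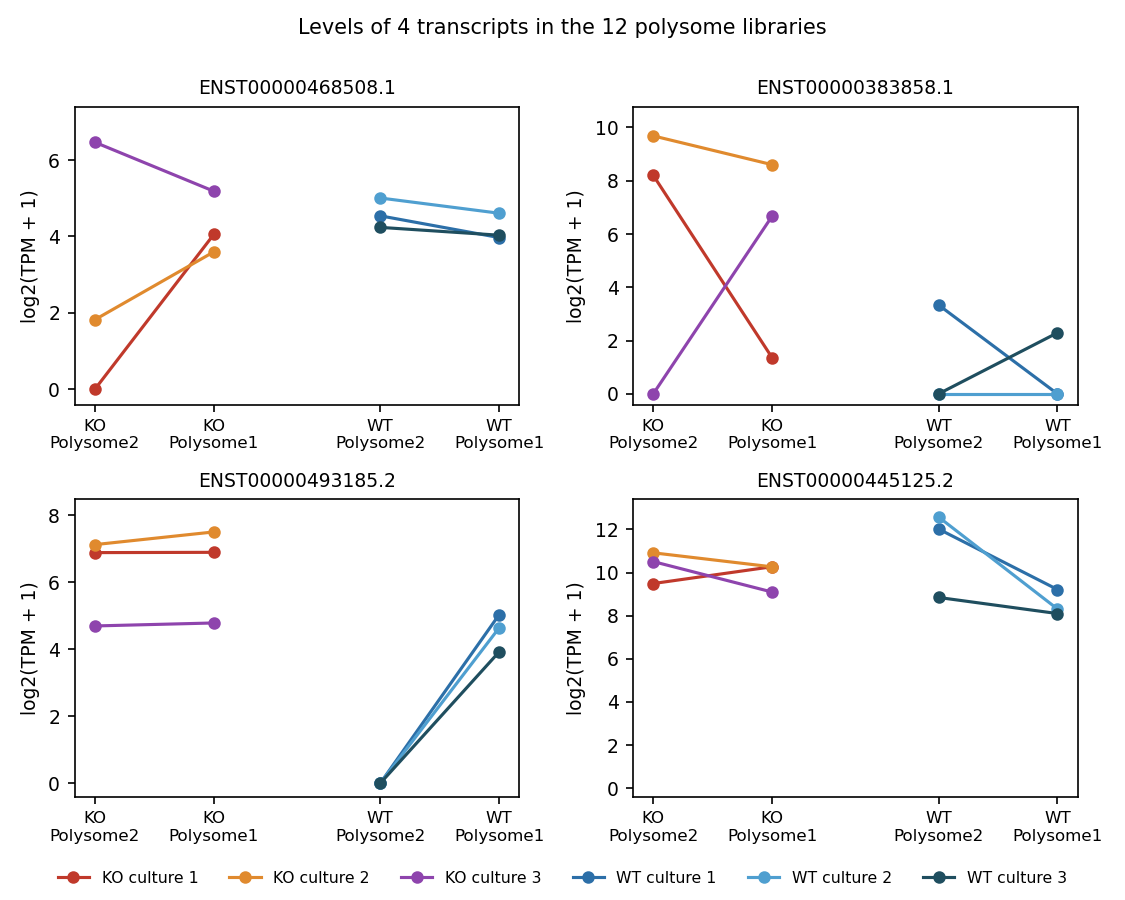
Levels of the 4 named transcripts, as log2(TPM + 1), in Polysome2 and Polysome1 of each KO culture (left of each panel) and each WT culture (right), with a line joining the 2 fractions of a culture. The KO lines cross or run in unlike directions for 3 transcripts, and lie nearly flat for ENST00000493185.2, whose 3 WT Polysome2 values are listed at 0.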

How the data were processed

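The deposited table held TPM per transcript for 36 libraries, with no column left unused. Per the submitters' processing notes, the authors used kallisto, sleuth and the build hg19, without version numbers. TPM keeps no depth, so the depth is unknown, and intervals for counting error could not be made. The planned gene lists and the sum over a gene's transcripts were not run, because 0 of the 59792 genes in the reference table carry an Ensembl ID. ERCC rows were set aside. Values were taken as log2(TPM + 1), which understates the change of low transcripts, and fitted with limma 3.58.1 in R 4.3.3 to the 12 polysome libraries, with a mean per group, culture as a block, a variance trend and 4 residual degrees of freedom. WT and KO thus share an estimate of the spread. Adjustment (Benjamini-Hochberg) ran over the 7243 transcripts, with a threshold of 0.05.

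The block rests on the sample descriptions, which name the culture of each fraction. In a check, deviations from the group means correlated between the 2 fractions of a culture at 0.875, 0.685 and 0.901 in KO and 0.146, 0.157 and 0.429 in WT. Named transcripts were to be the 2 largest called changes in each direction, of which KO had none, then the widest gap between culture 3 and cultures 1 and 2 in each direction. The other 2 were chosen after the values were seen. Among the 7243 transcripts, 484 had values identical to another in all 36 libraries, leaving 6937 distinct profiles. The script was tested on simulated data. The comparison, rows and lists were chosen with earlier results of these data known. Descriptions and figures were made with matplotlib 3.10.9, scipy 1.17.1, pandas 2.3.3 and numpy 2.4.6 under Python 3.11.15.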

Additional observations from a re-analysis of the deposited data

Results flagged for a closer look

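Over the 7243 transcripts with all 12 libraries, ENST00000493185.2 was the 1 transcript whose Polysome2 minus Polysome1 change passed the test of the difference between KO and WT, at 4.37 on the log2(TPM + 1) scale (limma adjusted p = 0.0355, and 0.000931 to 0.652 over the alternatives). Other rows, scalings and sets of libraries gave 0 to 1032 such calls. Its 3 KO cultures differed by -0.01, -0.38 and -0.09, and its 3 WT cultures by -5.03, -4.63 and -3.92.

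The ERCC spike-in rows lie outside the comparison and were higher in KO than in WT in both fractions. The lowest KO Polysome2 library held 47.8 TPM, above the 9.41 TPM of the highest WT Polysome2 library. The lowest KO Polysome1 library held 46.4 TPM, above the 16.1 TPM of the highest WT Polysome1 library. Both lowest KO values were those of culture 3.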

How the results depend on the processing

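The count of 0 calls between the KO fractions held in 18 of 20 alternatives, and was 2 after quantile normalization and 0 to 1 with single replicates left out. The alternatives with 0 include the fit with no replicate block, with 36 transcripts at an unadjusted p under 0.05, and scaling to the ERCC total, which moved the median KO log2 difference to -0.42 and that of WT to 0.52. The WT count of 3150 was 394 (42 higher, 352 lower) with no replicate block, 760 (187 and 573) with all 36 libraries, 5354 with a filter of 1 TPM, 1696 with no filter, 1886 over transcripts at 10 TPM in all 12 libraries and 5057 over those at 10 TPM in 3 WT columns. It was 1300 to 3122 with single replicates left out, lowest without WT culture 2 and 1635 without WT culture 1. After ERCC scaling 71.0% of the WT calls were higher, against 51.1%. The interaction count of 1 was 0 with no replicate block, with all 36 libraries, with a pseudocount of 5, with a filter of 1 TPM and with no filter. It was 2 with a pseudocount of 0.1 or median-of-ratios scaling, 962 (53 and 909) after ERCC scaling and 923 over transcripts at 10 TPM in all 12 libraries. With single replicates left out it was 0 to 1032, the highest without KO culture 3 and 32 without WT culture 3. The call of ENST00000493185.2 ended in 10 of 18 alternatives, with its direction kept. The 23 transcripts at which KO culture 3 opposed cultures 1 and 2 were 10 with a pseudocount of 5, 194 of 449 with a filter of 1 TPM and 0 of 3 over transcripts at 10 TPM in all 12 libraries. The ERCC difference within KO was 0.38 to 0.83 with single KO cultures left out. Uncalled KO differences changed sign for ENST00000383858.1 (-0.48 with a pseudocount of 0.1, -0.71 after ERCC scaling, -2.80 to 3.96 with single KO cultures left out, lowest without culture 1, and -6.67 without KO cultures 1 and 2), for ENST00000445125.2 (-0.13 after ERCC scaling, -0.064 to 1.03 with single KO cultures left out, lowest without culture 3) and for ENST00000468508.1 (1.28 without KO cultures 1 and 2). The causes were not tested. Depth is unknown in TPM, so no counting error stands beside a listed 0, and 3 cultures a genotype limit the permutation tests.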
